A study of Mus musculus with 6 samples.

Results

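Laminin chains are described here across primary aortic endothelial cells (EC) that carried either a Meis1 overexpression vector or a control vector. The members were the rows of the deposited gene table for Lama1, Lama2, Lama3, Lama4, Lama5, Lamb1, Lamb2, Lamb3 and Lamc1, which are 9 of 54429 genes. The cells came from adult wild-type C57BL/6 mice. Meis1-OE EC received the lentiviral Meis1-OE vector and YFP-CTRL EC received the YFP-CTRL vector, and each condition had 3 libraries, labelled A, B and C in the table. Values of single libraries are given in that order. EC were plated at 100000 cells per well on a gelatin-based coating, exposed to vector until 48 h, sorted for YFP, CD31 and VEC at 72 h, grown again to confluency and lysed, with 300 to 400 ng of RNA from 300000 cells used per library. All 6 libraries therefore come from cultured, sorted cells, and no coating is stated for the wells used after the sort. The study's text gives the 3 replicates of each condition as independent.

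Laminins are large secreted glycoproteins that form the sheet of the basement membrane facing the cell. Each is a trimer of an alpha, a beta and a gamma chain, joined in the endoplasmic reticulum through a coiled coil, and the trimer is named by the numbers of its chains, so that laminin-511 holds the products of Lama5, Lamb1 and Lamc1. The alpha chain carries the globular domains that integrins and dystroglycan bind. Laminin-411 and laminin-511 are the laminins known from endothelial basement membranes, and Lama1, Lama2 and Lama3 are better known from embryonic, muscle and epithelial basement membranes.

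Library totals ran from 34176592 to 47956569 counts, and p-values measure the spread of 3 cultures per condition. Meis1 was counted 135325, 157828 and 149221 times in Meis1-OE EC, and 39, 58 and 85 times in YFP-CTRL EC. The YFP-CTRL libraries differed among themselves in proliferation genes. The mean log2(CPM + 1) of 15 such genes was 4.39, 5.40 and 6.58 in YFP-CTRL EC, and 6.63 to 6.68 in Meis1-OE EC, so YFP-CTRL library C stood close to the Meis1-OE libraries. Every Meis1-OE score still lay above every YFP-CTRL score, and the Meis1-OE scores hardly varied. Fits with this score as a covariate therefore cannot fully separate it from condition. All 15 proliferation genes had a positive log2 fold change, with a median of 0.93, but 0 passed at an adjusted p under 0.05 (edgeR). Over all genes tested, 4.14% passed upward and 2.73% downward, so 0 of 15 is not far from the share of all genes. The conditions did not overlap for 6 of the 15, beside 33.1% of all genes tested. Markers of other cell types were low with a few exceptions. Over 6 fibroblast genes the summed level was 11.9 to 12.0 CPM (counts scaled to library size) in Meis1-OE EC and 16.1 to 49.5 CPM in YFP-CTRL EC, nearly all of it Pdgfra, with Lum at 0 everywhere. The sums were 2.45 to 3.33 against 1.06 to 2.52 CPM for 4 pericyte genes, with Kcnj8 at 0 throughout, 0.503 to 1.45 against 0.319 to 0.506 CPM for 6 macrophage genes, with C1qa, C1qb and Tyrobp at 0, and at most 0.131 CPM for 5 epithelial genes, with Epcam, Cdh1 and Krt14 at 0. For 5 smooth muscle genes they were 202 to 238 against 95.7 to 240 CPM, mostly Smtn. Within this list Acta2 stood out in YFP-CTRL library C. It had 7, 89 and 902 counts in YFP-CTRL EC and 152, 64 and 46 in Meis1-OE EC. Tagln (29 counts) and Cnn1 (13 counts) were also highest in YFP-CTRL library C, but Myh11 (4 counts) was not. Of 3 lymphatic endothelial genes, Lyve1 alone was above 3 counts, with means of 79.4 (Meis1-OE) and 284 CPM (YFP-CTRL), while Pdpn was at 0. Lyve1 was called lower (log2 fold change -1.84, adjusted p = 0.0301, edgeR). All 10 endothelial markers were present, at summed levels of 3401 to 4341 CPM against 4428 to 6146 CPM. Cdh5 was the largest part of these sums, and Cdh5 and Kdr were lower in all Meis1-OE libraries without passing the test (adjusted p = 0.0535 and 0.0504, edgeR). Of the 10 markers, Vwf and Cldn5 rose and Tek fell past the threshold, beside 4.14% upward and 2.73% downward of all genes tested. The median log2 fold change of the 10 was -0.02. In bulk RNA, fewer cells of a type and less RNA per cell cannot be told apart, and the part of these differences in the laminin results was not tested except where a value is given.

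Lama5, Lamc1, Lamb1 and Lamb2 made up nearly all laminin chain transcripts in both conditions. Levels of different genes are compared here as CPM, scaled by TMM (trimmed mean of M values), per kilobase of the longest annotated protein-coding transcript. In YFP-CTRL EC the order began with Lama5 (173 ± 28.0 CPM per kilobase, SD, n = 3), Lamc1 (124 ± 22.1), Lamb1 (99.4 ± 27.4) and Lamb2 (18.3 ± 2.02). Meis1-OE EC showed that order too, at 99.7 ± 6.20, 78.5 ± 4.02, 50.1 ± 1.63 and 24.4 ± 2.04 CPM per kilobase (SD, n = 3). Only Lamc1 and Lamb1 had overlapping ranges among these neighbours, and only in YFP-CTRL EC. Far below them stood Lama3 and Lama4. Lama4 was at 0.541 ± 0.250 and Lama3 at 0.239 ± 0.109 CPM per kilobase in YFP-CTRL EC (SD, n = 3), with overlapping ranges, whereas in Meis1-OE EC Lama3 at 2.23 ± 0.391 lay above Lama4 at 0.161 ± 0.0454. Lama2, Lamb3 and Lama1 were at no more than 0.137 CPM per kilobase in any library. The ranges of Lama4 and Lamb3 (0.114 ± 0.0339, SD, n = 3) overlapped in Meis1-OE EC, and those of Lamb3 and Lama2 overlapped in YFP-CTRL EC.

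**Figure D1:**
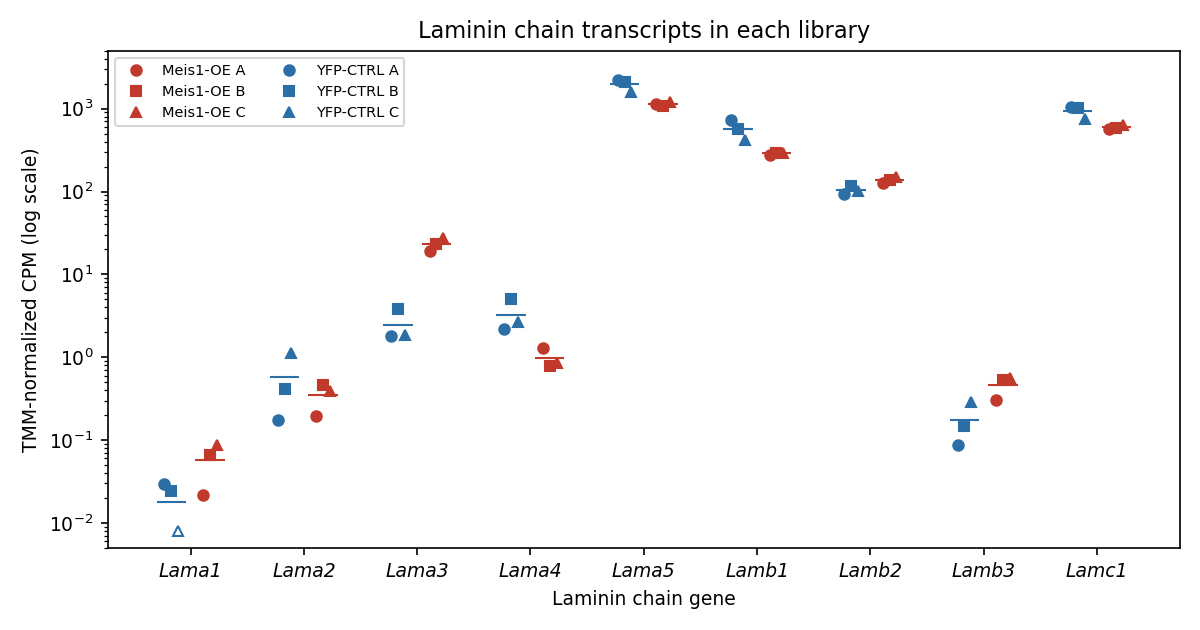
TMM-normalized CPM of the 9 laminin chain genes on a log axis, with one point per library, YFP-CTRL in blue, Meis1-OE in red, lines at group means, and an open symbol at the foot for a count of 0. Lama3 sits at 19.0 to 27.1 CPM in Meis1-OE EC against 1.80 to 3.78 CPM in YFP-CTRL EC, while Lama4, Lama5, Lamb1 and Lamc1 lie lower in all 3 Meis1-OE libraries.

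Log2 fold changes are Meis1-OE over YFP-CTRL throughout. Of the 9 chains, 8 passed the filter on low counts and were tested, together with all 16065 genes that passed it. At an adjusted p under 0.05 from edgeR's quasi-likelihood test, 1 chain was higher in Meis1-OE EC (Lama3) and 4 were lower (Lama4, Lama5, Lamb1 and Lamc1). Over all genes tested, 6.87% passed in either direction, 4.14% upward and 2.73% downward. The median log2 fold change was -0.70 over the 8 chains and 0.01 over all genes tested. The conditions did not overlap for 7 of the 8 chains, of which 3 were higher and 4 lower, while 33.1% of all genes tested did not overlap. On library totals without TMM factors, the split over all genes moved from 665 higher and 438 lower to 1048 higher and 179 lower, the median of all genes moved to 0.15, and 2 chains passed upward and 1 downward.

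Among the alpha chains, Lama3 was the chain that rose. It was counted 870, 1043 and 1256 times in Meis1-OE EC and 61, 154 and 84 times in YFP-CTRL EC, or 19.0, 23.0 and 27.1 CPM against 1.80, 3.78 and 1.85 CPM. All Meis1-OE libraries lay far above all YFP-CTRL libraries. Its log2 fold change was 3.22 (standard error, SE, 0.33), a 9.29-fold rise (adjusted p = 0.00423, edgeR). Lama3 passed under all 14 alternatives tried, at log2 fold changes of 3.01 to 3.66 and adjusted p-values up to 0.0267 from edgeR. With YFP-CTRL library C left out it was 3.01, and when the proliferation score was a covariate it was 3.25. The gene gives a long and a short alpha 3 chain, with annotated coding lengths of 9993 bases and of 5133 and 5175 bases, and the deposited gene counts do not separate them. RefSeq has 2 further genes that overlap Lama3, and no source says whether strand was used in counting, so reads shared with them cannot be told apart.

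Lama5, whose product is the alpha chain of laminin-511 and laminin-521, was by far the most abundant alpha chain. Its counts were 51997, 48281 and 55798 in Meis1-OE EC, which is 1138, 1064 and 1205 CPM. In YFP-CTRL EC they were 75460, 84569 and 73194, or 2221, 2073 and 1611 CPM. Every Meis1-OE library was below every YFP-CTRL library, and the YFP-CTRL library nearest to them was C. The difference was -0.79 on the log2 scale (SE 0.15, adjusted p = 0.0252, edgeR), or 1.73-fold lower. A log2 fold change of -0.93 was found without YFP-CTRL library C (adjusted p = 0.00165, edgeR), and when the proliferation score was a covariate it was -0.53 (adjusted p = 0.0663, edgeR). The gene lies on chromosome 2 at 180176373 to 180225904 (GRCm38.p6), and Mir7005 and Gm52542 overlap it.

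Lama4, the alpha chain of laminin-411 and laminin-421, was low in both conditions. It had 59, 36 and 39 counts in Meis1-OE EC and 74, 204 and 120 counts in YFP-CTRL EC, or 1.29, 0.793 and 0.842 CPM against 2.18, 5.0 and 2.64 CPM. The difference was -1.75 on the log2 scale (SE 0.39, adjusted p = 0.0428, edgeR), or 3.35-fold lower, the largest fall among the chains. YFP-CTRL library B was the highest, and without it the log2 fold change was -1.29 (adjusted p = 0.123, edgeR). On library totals the adjusted p was 0.0528, and it was 0.103 when the proliferation score was a covariate (edgeR for both).

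The other alpha chains were near the limit of detection. Lama2, the alpha chain of muscle laminin-211, had 9, 21 and 18 counts in Meis1-OE EC and 6, 17 and 51 in YFP-CTRL EC, and the conditions overlapped. Its log2 fold change of -0.74 (SE 0.65) did not pass (adjusted p = 0.514, edgeR). YFP-CTRL library C decided that sign, since without it the value was 0.19 (adjusted p = 0.836, edgeR). When the proliferation score was a covariate, Lama2 was at -1.76 (adjusted p = 0.0919, edgeR). Without YFP-CTRL library A it was at -1.15 (adjusted p = 0.247, edgeR), and without Meis1-OE library A at -0.45 (adjusted p = 0.752, edgeR). Lama1, the alpha chain of embryonic laminin-111, had 1, 3 and 4 counts in Meis1-OE EC and 1, 1 and 0 counts in YFP-CTRL EC. A count of 3 or fewer was treated as not detectable, so Lama1 was above that floor in 1 of 6 libraries and was not tested.

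Of the beta chains, only Lamb1, the beta chain of laminin-411 and laminin-511, fell past the threshold. Its counts were 12753, 13416 and 13660 in Meis1-OE EC, and 24980, 23315 and 18998 in YFP-CTRL EC. In CPM these are 279, 296 and 295 against 735, 572 and 418. The Meis1-OE libraries lay close together, and the YFP-CTRL libraries were spread out above them in the reverse of the order of their proliferation scores. Lama5 and Lamc1 had the same order over the YFP-CTRL libraries. Lamb1 differed by -0.99 on the log2 scale (SE 0.20, adjusted p = 0.0326, edgeR), or 1.98-fold lower. It was -1.18 without YFP-CTRL library C (adjusted p = 0.0012, edgeR) and -0.51 when the proliferation score was a covariate (adjusted p = 0.0457, edgeR).

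Lamb2, the beta chain of laminin-421 and laminin-521 and of the neuromuscular and glomerular basement membranes, had the opposite sign. It was at 126, 138 and 148 CPM in Meis1-OE EC, and at 93.3, 115 and 100.1 CPM in YFP-CTRL EC. All Meis1-OE libraries were above all YFP-CTRL libraries, but the log2 fold change of 0.42 (SE 0.12) missed the threshold (adjusted p = 0.0908, edgeR). Among 14 alternatives it passed on library totals alone (0.56, adjusted p = 0.0210, edgeR). Lamb3, a beta chain of epithelial basement membranes, was rare. It had 14, 24 and 26 counts in Meis1-OE EC and 3, 6 and 13 counts in YFP-CTRL EC, without overlap between conditions. Its log2 fold change of 1.37 (SE 0.48) did not pass (adjusted p = 0.132, edgeR), but did without YFP-CTRL library C (1.92, adjusted p = 0.0323, edgeR). When the proliferation score was a covariate the Lamb3 value was 0.65 (adjusted p = 0.573, edgeR).

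Lamc1, the gamma chain shared by nearly all laminins, fell with Lama5 and Lamb1. It was at 575, 587 and 633 CPM in Meis1-OE EC and at 1056, 1030 and 752 CPM in YFP-CTRL EC. YFP-CTRL library C was again the nearest to the Meis1-OE libraries, and the conditions did not overlap. The difference was -0.66 on the log2 scale (SE 0.15, adjusted p = 0.0465, edgeR), or 1.58-fold lower. Of the 4 chains that fell, Lamc1 was the closest to the threshold. Its adjusted p from edgeR was 0.00162 without YFP-CTRL library C (log2 fold change -0.81), 0.0802 without YFP-CTRL library A, 0.0816 on library totals, 0.0516 with at least 10 counts in every library, and 0.171 when the proliferation score was a covariate (log2 fold change -0.38). Lamc3, a gamma chain of nerve and vessel basement membranes that is not among the 9 members, had 2 to 18 counts and was not tested.

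The calls for the chains that fell depended on single libraries more than that for Lama3 did. Without Meis1-OE library A, B or C, or without YFP-CTRL library B, 0 of the 4 passed. Their adjusted p-values from edgeR then ran from 0.0900 to 0.201 for Lama4, 0.0981 to 0.156 for Lama5, 0.115 to 0.156 for Lamb1 and 0.147 to 0.219 for Lamc1. The number of genes called lower over all genes also dropped there, to 68, 16 and 18 without Meis1-OE library A, B or C in turn and to 66 without YFP-CTRL library B. The signs of all 4 log2 fold changes were negative under all 14 alternatives, and DESeq2 called all 4 lower (adjusted p = 0.000536 for Lama4, 0.000277 for Lama5, 0.000359 for Lamb1 and 0.00634 for Lamc1). DESeq2 also called more genes lower over all genes, 1115 beside the 438 that edgeR called as reported.

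**Figure D2:**
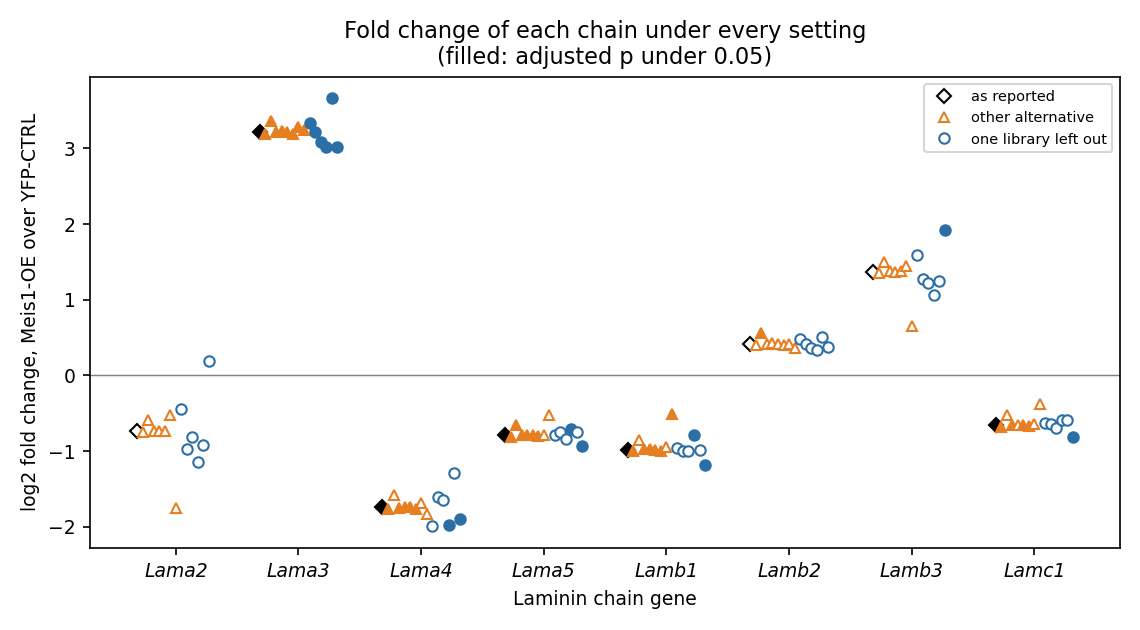
log2 fold change (Meis1-OE over YFP-CTRL) of each tested chain as reported (diamonds), with one library left out (circles) and under the other alternatives (triangles), filled where the adjusted p was under 0.05. Lama3 is filled throughout, the 4 chains that fell stay below 0 but are often open, and Lama2 crosses 0 in a single fit at 0.19.

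Promoter sequences were at hand for 5 of the 9 chains (Lama2, Lama5, Lamb1, Lamb2 and Lamb3, with 6 windows in all), from RefSeq on GRCm38.p6. The windows are 300 bases long around an annotated start, and they are printed for the alpha and the beta chain that fell together and for the beta chain of opposite sign. Capitals mark GGGCGG, the GC box that Sp factors bind, on either strand. The Lama5 window is chr2:180225810-180226109 on the minus strand, that of Lamb1 is chr12:31265043-31265342 on the plus strand and that of Lamb2 is chr9:108479612-108479911 on the plus strand.
Lama5: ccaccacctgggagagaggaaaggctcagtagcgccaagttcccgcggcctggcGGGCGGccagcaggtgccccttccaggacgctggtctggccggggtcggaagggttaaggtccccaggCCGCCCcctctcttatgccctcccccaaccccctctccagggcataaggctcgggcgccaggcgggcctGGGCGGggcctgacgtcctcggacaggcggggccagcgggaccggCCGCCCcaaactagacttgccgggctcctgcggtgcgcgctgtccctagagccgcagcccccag
Lamb1: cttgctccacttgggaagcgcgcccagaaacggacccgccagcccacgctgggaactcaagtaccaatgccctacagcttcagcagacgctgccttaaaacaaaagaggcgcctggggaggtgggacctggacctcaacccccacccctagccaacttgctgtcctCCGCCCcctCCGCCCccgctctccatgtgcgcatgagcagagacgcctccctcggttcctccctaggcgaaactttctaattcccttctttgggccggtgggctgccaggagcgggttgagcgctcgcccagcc
Lamb2: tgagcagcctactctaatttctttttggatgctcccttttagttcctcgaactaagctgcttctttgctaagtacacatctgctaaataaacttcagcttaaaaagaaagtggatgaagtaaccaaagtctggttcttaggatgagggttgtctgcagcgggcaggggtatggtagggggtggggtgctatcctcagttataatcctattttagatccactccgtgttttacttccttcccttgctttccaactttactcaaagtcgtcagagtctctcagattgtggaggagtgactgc

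The Lama5 window held 4 matches of GGGCGG and had a GC content of 72.7%, the Lamb1 window held 2 matches at 63.7%, and the Lamb2 window held 0 at 44.0%. The Lama2 window held 1 match at 50.3%, and both Lamb3 windows held 0 at 59.3%. Of all 32851 windows in the table, 35.7% held this motif, as did 3 of the 6 laminin windows. TGACAG, the core letters bound by Meis factors, was searched on both strands too, and the motifs can share an edge letter. It was in 19.2% of all windows and in 1 of the 6 laminin windows, that of Lama2. A match describes the letters of the window, and its absence says only that these letters are not there.

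The make-up of each chain class was compared within libraries, where scaling between libraries has no effect. Per length, Lama5 held 98.0%, 97.5% and 97.4% of alpha chain transcripts in Meis1-OE EC and 99.7%, 99.3% and 99.5% in YFP-CTRL EC. Lama3 took 1.80%, 2.32% and 2.41% against 0.0888%, 0.199% and 0.126%, and Lama4 took 0.209%, 0.137% and 0.128% against 0.184%, 0.451% and 0.307%. Lama3 was therefore the second alpha chain in every Meis1-OE library, and Lama4 in every YFP-CTRL library. With coding lengths and the shorter Lama3 model, a choice made after the values were seen, the mean Lama3 share was 4.21% ± 0.622 in Meis1-OE EC and 0.272% ± 0.111 in YFP-CTRL EC (SD, n = 3).

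The share of Lamb2 was higher in every Meis1-OE library. It held 31.6%, 32.4% and 34% of beta chain transcripts per length in Meis1-OE EC, and 11.5%, 17.2% and 19.7% in YFP-CTRL EC. There were 2.22, 2.14 and 1.99 Lamb1 counts for each Lamb2 count in Meis1-OE EC and 7.88, 4.95 and 4.18 in YFP-CTRL EC. The log2 ratio of Lamb2 to Lamb1 was -1.08 ± 0.082 in Meis1-OE EC and -2.45 ± 0.474 in YFP-CTRL EC (SD, n = 3), a difference of 1.37. The exact permutation test, two-sided, gave p = 0.1, the smallest that 3 libraries against 3 allow (0.15 adjusted by Benjamini-Hochberg over 3 ratios). Leaving out single libraries moved the difference between 1.10 and 1.56.

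For the 2 endothelial alpha chains the conditions overlapped. The log2 ratio of Lama5 to Lama4 was 10.20 ± 0.376 in Meis1-OE EC and 9.31 ± 0.648 in YFP-CTRL EC (SD, n = 3), with overlapping libraries, and the exact permutation test, two-sided, gave p = 0.2 (0.2 adjusted over 3 ratios). YFP-CTRL library A alone overlapped the Meis1-OE libraries, and the difference of 0.89 became 1.23 without it (exact permutation p = 0.1) and 0.59 without YFP-CTRL library B (exact permutation p = 0.3). Summed per length, the log2 ratio of alpha chains to Lamc1 was 0.38 ± 0.060 in Meis1-OE EC and 0.49 ± 0.045 in YFP-CTRL EC (SD, n = 3), a difference of -0.11. All Meis1-OE libraries were below all YFP-CTRL libraries, but Meis1-OE library A at 0.435 and YFP-CTRL library B at 0.439 nearly touched. For this ratio the exact permutation test, two-sided, gave p = 0.1 (0.15 adjusted over 3 ratios).

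**Figure D3:**
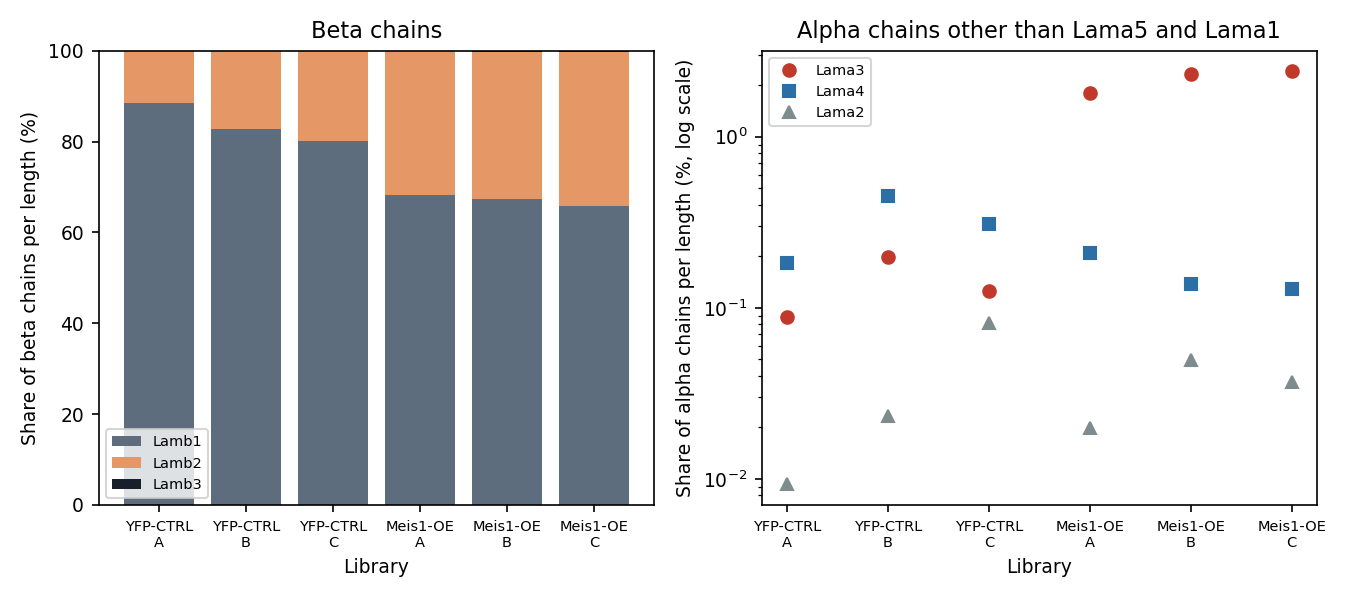
Share of each chain in its class, from CPM per kilobase, in each library, as stacked bars for beta chains (linear axis in percent) and as points on a log axis for Lama2, Lama3 and Lama4 among alpha chains. Lamb2 takes 31.6 to 34% in Meis1-OE EC against 11.5 to 19.7% in YFP-CTRL EC, and Lama3 lies above Lama4 in Meis1-OE libraries and below it in YFP-CTRL libraries.

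Which trimers these transcripts could furnish was read from the least abundant of the 3 chains of the trimers described here, as a description of transcripts and not of protein. Laminin-511 was first in both conditions, with Lamb1 as its lowest chain, at 48.2, 51.1 and 51.0 CPM per kilobase in Meis1-OE EC and 127, 98.8 and 72.3 in YFP-CTRL EC. Laminin-521, limited by Lamb2, was at 22.3, 24.6 and 26.4 CPM per kilobase against 16.6, 20.5 and 17.8. The gap between these trimers was narrower in Meis1-OE EC, in which the one limited by Lamb1 was lower and the one limited by Lamb2 was higher in all libraries. Because both draw on the same Lama5 and Lamc1 transcripts, their levels cannot be added.

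Laminin-311 and laminin-321 were both limited by Lama3 and stood at 1.84, 2.22 and 2.62 CPM per kilobase in Meis1-OE EC against 0.174, 0.365 and 0.179 in YFP-CTRL EC. Laminin-411 and laminin-421 were both limited by Lama4, at 0.213, 0.131 and 0.139 against 0.360, 0.827 and 0.437 CPM per kilobase. The alpha 3 trimers thus lay above the alpha 4 trimers in every Meis1-OE library and below them in every YFP-CTRL library. Trimers that need Lama1, Lama2 or Lamc3 had a lowest chain at no more than 0.116 CPM per kilobase in any library.

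**Figure D4:**
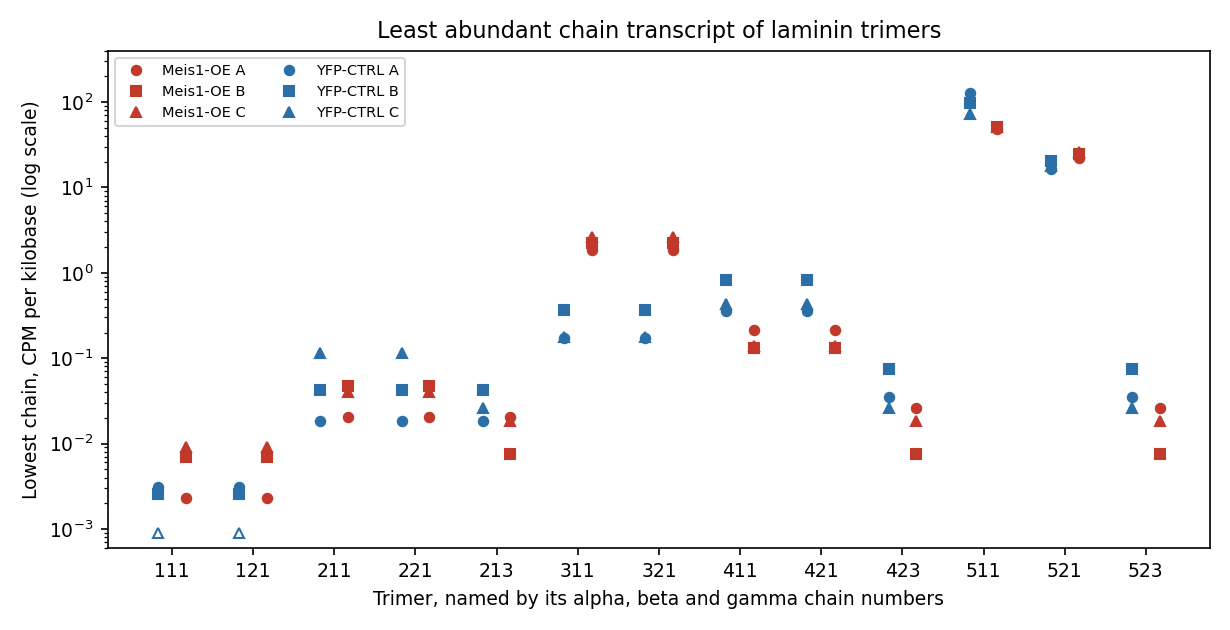
Lowest of the 3 chain transcripts of each laminin trimer described here in each library, as CPM per kilobase on a log axis, YFP-CTRL in blue and Meis1-OE in red, with open symbols at the foot for 0. Laminin-511 and laminin-521 lie above all others in every library, and the alpha 3 trimers (311 and 321) lie above the alpha 4 trimers (411 and 421) in Meis1-OE EC only.

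Partners of laminin in the basement membrane moved in both directions. Of 13 such genes (Nid1, Nid2, Hspg2, Agrn, Col4a1, Col4a2, Col15a1, Col18a1, Sparc, Tinagl1, Ntn4, Pxdn and Npnt), 11 were tested, 1 was higher and 1 was lower, beside the 4.14% and 2.73% of all genes. Their median log2 fold change was -0.06. Nid1 encodes nidogen, which links the gamma 1 chain of laminin to collagen IV, and it rose while Lamc1 fell. It was at 1056, 1055 and 1016 CPM in Meis1-OE EC against 761, 817 and 731 CPM in YFP-CTRL EC, without overlap. The difference was 0.44 on the log2 scale (SE 0.10, adjusted p = 0.0476, edgeR), and it did not pass without Meis1-OE library A, B or C or YFP-CTRL library A or B (adjusted p of 0.0732 to 0.238 from edgeR). It also missed with DESeq2's size factors (0.0627), without the filter (0.0847), in the robust fit (0.0509) and with the covariate (0.0759), all by edgeR. Nid2 was at or near 0 in all libraries.

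Col18a1, the collagen XVIII core protein, fell from 1358, 1451 and 1243 CPM in YFP-CTRL EC to 828, 826 and 868 CPM in Meis1-OE EC. The difference was -0.68 on the log2 scale (SE 0.11, adjusted p = 0.0148, edgeR), and it did not pass without Meis1-OE library A, B or C or YFP-CTRL library B (0.0554 to 0.120 from edgeR). Npnt, the integrin alpha 8 ligand nephronectin, had the largest log2 fold change of the list, 1.37 (SE 0.33, adjusted p = 0.0543, edgeR). It was at 114, 152 and 151 CPM in Meis1-OE EC and at 27.8, 71.7 and 62.4 CPM in YFP-CTRL EC. Npnt passed under 6 of 14 alternatives, among them DESeq2 (adjusted p = 0.00184) and the fits without YFP-CTRL library A or C (0.0213 and 0.0330 from edgeR), and with the covariate it was at 0.83 (adjusted p = 0.275, edgeR).

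Of 9 laminin receptor genes (Itga3, Itga6, Itga7, Itgb1, Itgb4, Dag1, Bcam, Mcam and Cd151), 0 were higher and 1 was lower by edgeR, beside 4.14% and 2.73% of all genes tested. Their median log2 fold change was -0.14. At an unadjusted p under 0.05 from edgeR, 1 was higher and 2 were lower, beside 2050 and 2155 of all 16065 genes tested. DESeq2 called 0 higher and 2 lower, beside 1128 and 1115 over all genes. The gene called by edgeR was Itga3, the alpha chain of an integrin that binds laminin-511. It was at 562, 490.1 and 489.7 CPM in Meis1-OE EC and at 713, 873 and 749 CPM in YFP-CTRL EC, without overlap. The difference was -0.60 on the log2 scale (SE 0.12, adjusted p = 0.0351, edgeR), but it missed without Meis1-OE library A, B or C or YFP-CTRL library B (0.0848 to 0.203 from edgeR), on library totals (0.0702) and with the covariate (0.0691). Mcam, an endothelial surface receptor for laminin-411, had the largest value of the list, -0.94 (SE 0.31, adjusted p = 0.111, edgeR). Its levels of 245, 242 and 281 CPM in Meis1-OE EC overlapped those of 270, 692 and 513 CPM in YFP-CTRL EC. It passed without YFP-CTRL library A (log2 fold change -1.25, adjusted p = 0.0137, edgeR) and with DESeq2 (0.0308), while without YFP-CTRL library B the log2 fold change was -0.61 (adjusted p = 0.299, edgeR).

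**Figure D5:**
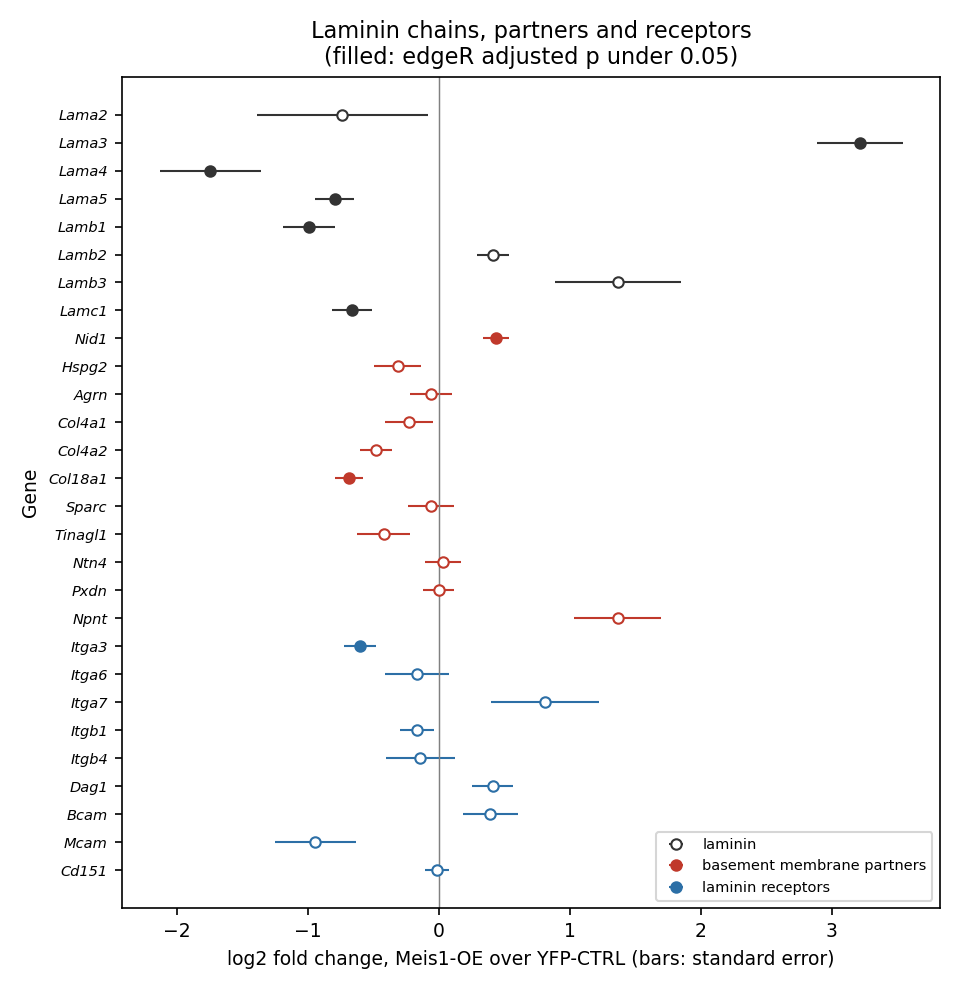
log2 fold change with SE, Meis1-OE over YFP-CTRL, for the tested laminin chains, basement membrane partners and laminin receptors, filled where the adjusted p from edgeR was under 0.05. Lama3 lies farthest to the right at 3.22 and Lama4 farthest to the left at -1.75, while most partners and receptors lie within 1 of 0.

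Profiles over the 6 libraries were compared by the Euclidean distance between log2(CPM + 0.5) values centred on each gene's mean, as a description, for the 5 chains with a mean of at least 5 CPM. The genes nearest to Lama3 were Efhd1 and Grin1os (distances 0.785 and 0.812). Those nearest to Lama5 were Trmt61a and AU041133 (0.087 and 0.112), to Lamb1 Arv1 and Ppid (0.104 and 0.148), to Lamc1 Gm20939 and Ncdn (0.088 and 0.089), and to Lamb2 Egr1 and Inpp5a (0.078 and 0.085). Lama5 and Lamc1 were each other's nearest chain, at 0.201, which placed Lamc1 35th in nearness to Lama5 and Lama5 79th in nearness to Lamc1 over all genes tested. The nearest chain to Lamb1 was Lama5, at 0.361 (rank 99 over all genes tested). Lamb3 was the nearest chain to Lamb2, at 0.402 (rank 1071), and to Lama3, at 3.19 (rank 1839). The limit of 5 CPM was not applied to the genes compared with these 5 chains. Lamb3 was at only 0.0883 to 0.562 CPM, where the added 0.5 flattens a profile. Its nearness to Lamb2 and Lama3 therefore cannot be read as a likeness of fold change.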

How the data were processed

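The authors deposited estimated counts per gene symbol, not normalized, for 3 Meis1-OE and 3 YFP-CTRL ribodepleted total RNA libraries. The labels name build mm10, while the aligner, counter and annotation are not given in the sources used here. Conditions came from the labels. The columns carry letters and the labels carry numbers, and nothing links them. Members and gene lists were chosen with earlier results of these data known.

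Counts were rounded and analysed in R 4.3.3 with edgeR 4.0.16 (filterByExpr, TMM, quasi-likelihood test, all 16065 genes kept by the filter, Benjamini-Hochberg adjustment, threshold 0.05, standard errors from the F statistic), after a test on simulated data. DESeq2 1.42.0 was an alternative. Totals ran from 34176592 to 47956569 counts. Ratios had 0.5 added to each count, and a count of 3 or fewer was treated as not detectable. This floor covers counting error only, since reads are not independent molecules.

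Lengths were those of the longest protein-coding transcript per symbol in a reference annotation of NCBIM37 (coding length as alternative). Promoters and positions are RefSeq's on GRCm38.p6, the assembly of mm10. Figures were drawn with matplotlib 3.10.9. Named by rule were the 9 chains, each listed gene past the threshold, the gene of largest absolute log2 fold change per list, and the 2 nearest profiles per chain of at least 5 CPM. Alternatives were other scalings, filters, thresholds and fits, each library left out, the column letter as a block, and a proliferation score (mean log2(CPM + 1) of 15 genes) as a covariate. Protein sequences were not used here. Some listed genes, and the results that need them, are not reported here.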

Additional observations from a re-analysis of the deposited data

How the results depend on the processing

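Over the chains and named listed genes, 120 alternative values of log2 fold changes kept their sign and side of the threshold, 49 lost the call, 10 gained it and 1 changed sign. The change of sign was that of Lama2 (0.19 without YFP-CTRL library C, range -1.15 to 0.19 over libraries left out), which did not pass, and its cause was not tested.

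Genes called higher and lower over all genes numbered 1048 and 179 on library totals, 1128 and 1115 with DESeq2, 168 and 40 at an adjusted p under 0.01, and 1138 and 1073 at under 0.1. With the proliferation covariate 363 were higher and 292 lower. Over libraries left out, 115 to 2717 were higher and 16 to 2498 lower, the lowest of both without Meis1-OE library B and the highest of both without YFP-CTRL library C. Laminin chains called higher were 2 on library totals and at under 0.1, and 1 to 2 over libraries left out. Chains called lower were 1 on library totals, 1 with the covariate, 0 at under 0.01 and 0 to 4 over libraries left out. Partner genes called higher were 2 on library totals, with DESeq2 and at under 0.1, 0 with DESeq2's size factors, the robust fit, the covariate and at under 0.01, and 0 to 2 over libraries left out. Partner genes called lower were 2 with DESeq2 and at under 0.1, 0 at under 0.01 and 0 to 3 over libraries left out. Receptor genes called lower were 2 with DESeq2, 0 on library totals and at under 0.01, and 0 to 2 over libraries left out, and those called higher were 0 to 1 there.

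With the column letter as a replicate block, 544 genes were higher and 189 lower, 0 of the chains were lower, 0 receptor genes were lower, Nid1 lost its call (0.44, adjusted p = 0.0939 from edgeR) and Lama3 was still called (1 chain higher). Same-letter libraries correlated in their deviations at 0.267, 0.120 and 0.070, and not every library correlated best with its own letter, so letters were not taken as pairs. With coding lengths, the lowest chain of laminin-511 in Meis1-OE EC was at 52.7 CPM per kilobase, and with the shorter Lama3 model, added after the values were seen, that of laminin-311 was at 4.49 and 0.482 in Meis1-OE and YFP-CTRL EC. The 3 ratios kept their direction in all 25 alternative values. With 3 libraries per condition no exact permutation p can fall below 0.1, and the counts of Lama1, Lama2, Lamb3 and Lama4 limit what can be seen of them. Proteins were not measured.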
